A study of Rattus norvegicus with 71 samples.

Results

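The detoxification enzymes of whole rat lung were taken here as the genes whose array symbol begins with Cyp1 to Cyp4 and a letter, Gst and one of the class letters a, m, p, t, o, k or z, Ugt, Fmo, Sult, Akr1, Nqo or Gcl, and whose probe was above background (detection p-value below 0.01) on 3 or more of the 71 arrays. Of 112 genes with such a symbol on the array, 71 met the detection rule, against 9642 genes with a symbol in the whole set of tested probes. Of these 71, 70 are enzymes. The remaining gene is Fmod, which encodes fibromodulin, a collagen-binding proteoglycan, and was found only because its symbol starts with the same letters as the flavin monooxygenases. It was kept out of every count of enzymes. The 70 enzymes were 26 cytochrome P450s, 3 flavin monooxygenases, 11 aldo-keto reductases, 2 quinone reductases, 15 glutathione transferases and 5 sulfotransferases. The others were 6 UDP-glycosyltransferases, counted by the symbol Ugt (not all of them glucuronosyltransferases), and the 2 subunits of glutamate-cysteine ligase.

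The arrays measured RNA of whole lung from 3 inbred rat strains, Lewis, Fisher and Brown Norway, at postnatal days 1, 7 and 14 (PN1, PN7 and PN14), after exposure in utero to saline or to ovalbumin, an egg white protein used as an allergen. Each of the 18 groups of strain, age and exposure had 4 arrays, except the saline-exposed Fisher rats at PN7, which had 3. The labels name no litter, animal or sex, so p-values measure the spread between these arrays, which may share an animal or a litter. They also state no dose, route or day of the exposure, and nothing on treatment after birth. Signals are background-corrected, quantile-normalized log2 intensities, and a level is compared only with levels of the same probe. A difference was called when its adjusted p was under 0.05 (limma, 1 model of 18 group means, Benjamini-Hochberg adjustment over 14019 probes).

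Detoxification in the lung is usually described in phases. Cytochrome P450s and flavin monooxygenases oxidise foreign and endogenous compounds, and aldo-keto and quinone reductases reduce carbonyls and quinones. Glutathione transferases, glucuronosyltransferases and sulfotransferases then attach glutathione, glucuronic acid or sulfate, and glutamate-cysteine ligase catalyses the rate-limiting step of glutathione synthesis. In the rodent lung much of this capacity is known from club cells of the airway and from alveolar type 2 cells. In whole lung, fewer cells of a type and less RNA per cell cannot be told apart.

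Between 10128 and 12437 probes were detected per array (median 11217). The arrays lay on 6 slides, and no slide held saline arrays of both PN1 and PN7 or of both PN7 and PN14. The summed level of 14 measured hepatocyte genes, of 19 listed, was 16.01 on Fisher PN1 saline array a and 15.17 on Lewis PN7 saline array d, against a median of 12.85 over all arrays and a next highest of 13.89. Squamous epithelium genes, a list of 5 chosen after the values were seen, summed to 13.91 on Fisher PN1 saline array d. They summed to 13.63 on Brown Norway PN1 ovalbumin array c. The next highest, 12.05 on Lewis PN1 ovalbumin array b, also lay above the median of 7.863 over all arrays. The heart genes Nppa and Nppb, also chosen after the values were seen, summed to 14.62 on Fisher PN7 ovalbumin array d. The next highest were 12.23 on Fisher PN1 saline array a and 11.98 on Fisher PN14 saline array c, against a median of 7.14. Below, only the arrays above these next highest ones are called arrays with hepatocyte, squamous or heart genes. Several results that rest on them are given with and without them.

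Of the 70 enzymes, 44 were detected on every array and 12 on fewer than 10 arrays. All 3 flavin monooxygenases, both quinone reductases and both ligase subunits were detected on every array, as were 8 of 11 aldo-keto reductases, 11 of 15 glutathione transferases and 13 of 26 P450s. Of the 41 genes with a matching symbol that were left out, 26 were detected on no array, 13 on 1 array and 2 on 2 arrays (Cyp2c22 and Cyp4f17). Just inside the limit were 4 genes detected on 3 arrays each, Cyp1a1, Ugt1a8, Ugt2b15 and Sult2b1. Among those left out were Cyp1a2, a P450 of liver, Cyp2s1, a P450 of airway epithelium, Gsta1, Gsta2, Fmo5 and Ugt1a1. Cyp2b1 and Gstz1 had no probe with their symbol on the array, and Ugt2b1 did not meet the detection rule. For 68 of the 71 members, the accession given with the probe is listed under the same gene in RefSeq. Probe sequences were not used here, so near-identical family members (Akr1c, Gstm, Cyp2 and the Ugt1a genes, which share their last exons) may share signal, and this was not tested.

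Several low members were high on the arrays with hepatocyte genes. Cyp3a2 and Ugt2b15, enzymes of liver, had their highest levels on Fisher PN1 saline array a (8.04 and 6.83), followed by Lewis PN7 saline array d (7.62 and 6.51). Cyp2d2 reached 9.58 on Lewis PN7 saline array d and 9.53 on Fisher PN1 saline array a, while the next highest array was at 7.22 and its median at 6.34. Sult1b1, Cyp2t1 and Ugt8 had their 2 highest levels on the arrays with squamous genes. Cyp3a2, Ugt2b15 and Cyp2d2 were named here after their values were seen, so their number says nothing on other enzymes of liver.

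Age was compared over the 35 saline arrays as the mean of the strain differences. From PN1 to PN14 the lung gained RNA of several P450s, Fmo1 and aldo-keto reductases. It lost RNA of Nqo1, Cyp1b1 and 2 of 6 UDP-glycosyltransferases (Ugt1a6 and Ugt1a7c). Of the 70 enzymes, 30 were called between PN14 and PN1, 17 higher and 13 lower, against 35.2% of all probes tested. Between PN7 and PN1, 28 were called (18 higher and 10 lower), against 47% of all probes, and between PN14 and PN7, 34 (17 higher and 17 lower), against 45%. These shares were near those of all probes, and the median differences of the enzymes (-0.04, 0.03 and -0.06, log2) lay near 0 as did those of all probes (-0.01, 0.02 and -0.02). The 3 counts were 22, 21 and 23 in a fit that adds slide as a fixed term. That fit called 2306 of 14019 probes between PN14 and PN1, 3662 between PN7 and PN1 and 3502 between PN14 and PN7. Slide 1 held 2 Lewis saline arrays each of PN1 and PN14. Within it, 21 enzymes were called between PN14 and PN1, 18 of them among the 30, beside 3401 of 14019 probes.

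The P450 that rose most was Cyp2b15, a member of the CYP2B subfamily. Its 12 PN1 arrays ran from 7.64 to 8.69 (median 8.40), its 11 PN7 arrays from 8.73 to 9.77 (median 9.34) and its 12 PN14 arrays from 9.34 to 11.33 (median 9.94). The PN1 arrays overlapped neither of the older groups, and PN14 was 3.55-fold higher than PN1 (log2 difference 1.83, SE 0.104, adjusted p = 5.16e-22). It rose between PN14 and PN1 in each strain, by 1.52 in Lewis, 1.49 in Fisher and 2.48 in Brown Norway. The 36 ovalbumin arrays were not part of the age differences, but helped to set the spread used in the tests. In them, the medians of Cyp2b15 were 8.57 at PN1, 9.79 at PN7 and 10.39 at PN14.

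Cyp2e1, which oxidises ethanol and other small molecules, rose late. Its saline arrays ran from 6.81 to 8.17 at PN1 (median 7.33), from 6.34 to 9.09 at PN7 (median 7.10) and from 8.38 to 9.93 at PN14 (median 8.91). The PN14 arrays lay above all PN1 arrays, with a 2.87-fold difference (1.52 on the log2 scale, SE 0.212, adjusted p = 2.62e-08), and the difference within slide 1 in Lewis was 1.34 (adjusted p = 0.00566). Its change from PN1 to PN7 was 0.08 (adjusted p = 0.786). Its rise from PN7 to PN14 was 1.44 (adjusted p = 2.69e-07) and 0.40 with slide as a fixed term (adjusted p = 0.484).

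Cyp2a3, a P450 known from nasal and lung tissue of the rat, rose by 1.74 from PN1 to PN14 (SE 0.188, adjusted p = 1.55e-11). The strains differed in where this came from. Lewis went from 5.18 ± 0.40 (SD, n = 4) at PN1 to 7.29 ± 0.34 at PN7 and 7.94 ± 0.11 at PN14. Fisher was already at 7.57 ± 0.50 at PN1 and reached 8.07 ± 0.14 at PN14, a difference of 0.49 that was not called (adjusted p = 0.344). Cyp2j3, an epoxygenase of fatty acids, had medians of 7.33, 7.26 and 8.31 at PN1, PN7 and PN14, and its PN14 arrays overlapped neither younger group (0.99 above PN1, adjusted p = 7.03e-11). Cyp4f5, of the CYP4F subfamily of fatty acid hydroxylases, rose by 0.88 by PN7 (adjusted p = 5.64e-08) and was 0.82 above PN1 at PN14.

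Cyp1b1 and Cyp3a9 were the P450s that fell most. Cyp1b1, an enzyme of tissues outside the liver that oxidises oestrogens and polycyclic hydrocarbons, had medians of 10.14, 9.86 and 9.19 at the 3 ages, and PN14 did not overlap the younger groups (log2 difference -0.91 from PN1, SE 0.0948, adjusted p = 5.06e-12). Its difference between PN7 and PN1 was -0.24 (adjusted p = 0.0367) and lost its call under several alternatives. Cyp3a9 was 1.00 lower on the log2 scale at PN14 than at PN1 (2.00-fold, adjusted p = 4.57e-06), and most of this lay before PN7 (-0.96, adjusted p = 1.34e-05). Its fall by PN7 was -0.38 with slide as a fixed term (adjusted p = 0.2998). Cyp4b1 and Cyp2f4, P450s well known from rodent lung, differed by 0.21 and -0.18 between PN14 and PN1, and neither was called (adjusted p = 0.0896 and 0.180). Cyp2j10, of the CYP2J subfamily, fell by 0.40 on the log2 scale from PN1 to PN14.

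The flavin monooxygenases were all called higher at PN14 than at PN7, against 22% of all probes. Fmo1 ran from 6.96 to 9.54 at PN1 (median 7.85), from 7.89 to 8.82 at PN7 (median 8.41) and from 8.58 to 10.66 at PN14 (median 9.56). PN14 was 2.71-fold above PN1 (1.44, SE 0.128, adjusted p = 2.49e-14), with called rises of 1.82 in Lewis, 1.33 in Fisher and 1.17 in Brown Norway. Fmo2, the main flavin monooxygenase of lung in many mammals, fell by 1.00 from PN1 to PN7 (adjusted p = 0.000372) and rose by 1.38 from PN7 to PN14 (adjusted p = 2.80e-06), and its difference between PN14 and PN1 was 0.38 (adjusted p = 0.203). The dip was deepest in Brown Norway, where Fmo2 was 9.33 ± 0.63 at PN1, 6.95 ± 0.37 at PN7 and 9.17 ± 0.40 at PN14 (SD, n = 4 each). The same 4 PN1 arrays also entered the strain and exposure differences of Fmo2 given below. In the fit with a slide term the 2 steps were -0.37 (adjusted p = 0.512) and 0.03 (adjusted p = 0.966).

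Of the 11 aldo-keto reductases, 7 were called between PN14 and PN1, 6 of them higher, against 35.2% of all probes called and 17.2% called higher. Akr1c15 ran from 8.09 to 8.95 at PN1 (median 8.49), from 8.24 to 9.63 at PN7 (median 9.19) and from 9.75 to 10.90 at PN14 (median 10.37). All PN14 arrays lay above all younger arrays, and the rise over PN1 was 3.44-fold (1.78, SE 0.0936, adjusted p = 1.14e-23). Akr1c19 rose by 1.44 without overlap (adjusted p = 7.20e-15) and Akr1c13 by 0.95 (adjusted p = 1.46e-07), though Akr1c13 was at 0.49 with slide as a fixed term (adjusted p = 0.177). Akr1b8, a member of the aldose reductase subfamily, rose by 0.71 by PN7 (adjusted p = 5.92e-07) and fell by 0.65 from PN7 to PN14 (adjusted p = 3.97e-06). The brighter probe of Akr1c12 fell by 1.03 from PN1 to PN7 (adjusted p = 9.85e-07). Its other probe was detected on only 2 of 12 PN1 and 2 of 11 PN7 arrays, so its difference of 0.27 (adjusted p = 0.0150) lies near background.

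The quinone reductases moved in opposite directions. Nqo1, which reduces quinones directly to hydroquinones, ran from 11.10 to 13.06 at PN1 (median 11.62) and from 10.53 to 11.22 at PN14 (median 10.95). It was 1.93-fold lower at PN14 (log2 difference -0.95, SE 0.105, adjusted p = 3.54e-11), with the difference within slide 1 in Lewis at -0.37 (adjusted p = 0.130). Nqo2, which uses dihydronicotinamide riboside as its cosubstrate, was 0.71 higher at PN14 than at PN1 (adjusted p = 6.20e-12).

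Of 15 glutathione transferases, 7 were called between PN14 and PN1, 2 higher and 5 lower, against 17.2% and 18% of all probes. Between PN14 and PN7, 8 were called, 7 of them lower, against 45% of all probes called and 23% called lower. Gsta4, which conjugates the lipid peroxidation product 4-hydroxynonenal, rose by 0.75 by PN7 (adjusted p = 1.71e-12) and was 0.46 above PN1 at PN14. Gstp1, the pi class enzyme abundant in epithelia, rose by 0.70 by PN7 (adjusted p = 5.74e-09) and then fell by 0.55 (adjusted p = 1.18e-06). Gstm1, of the mu class, was at 10.65, 10.51 and 10.03 (medians) at the 3 ages and fell by 0.61 after PN7 (adjusted p = 5.32e-07). Gstm4 and Gstm5, also of the mu class, fell by 0.61 and 0.54 over the same step. Gsto2, of the omega class, fell by 0.43 from PN1 to PN7 (adjusted p = 0.00634).

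Both glucuronosyltransferases that were called fell. Ugt1a6, which conjugates small phenols, ran from 7.05 to 7.72 at PN1 (median 7.44), from 6.03 to 7.80 at PN7 (median 6.95) and from 6.19 to 6.89 at PN14 (median 6.52). The PN1 and PN14 arrays did not overlap (-0.90, SE 0.113, adjusted p = 1.89e-09), while the PN7 arrays overlapped both. Ugt1a7c fell by 1.06 (SE 0.0951, adjusted p = 3.17e-14), and the differences within slide 1 in Lewis were -0.97 for Ugt1a6 (adjusted p = 0.00794) and -0.98 for Ugt1a7c (adjusted p = 0.00247). Sult1a1, the phenol sulfotransferase, had medians of 11.31, 10.35 and 10.94, a fall of 1.13 by PN7 (adjusted p = 9.02e-09) followed by a rise of 0.47 (adjusted p = 0.00732) that was -0.06 with slide as a fixed term (adjusted p = 0.904). Gclc and Gclm, the catalytic and modifier subunits of glutamate-cysteine ligase, had PN14 to PN1 differences of -0.04 and 0.02 and were called in none of the 3 age comparisons (limma adjusted p from 0.206 to 0.898). These are means over strains, and the limma F test of strain by age called both (Gclc F = 10.9, adjusted p = 3.31e-05, and Gclm F = 5.79, adjusted p = 0.00335). The highest saline mean of Gclc was at PN7 in Lewis and at PN1 in Fisher and Brown Norway. That of Gclm was at PN7 in Lewis, PN14 in Fisher and PN1 in Brown Norway.

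**Figure D1:**
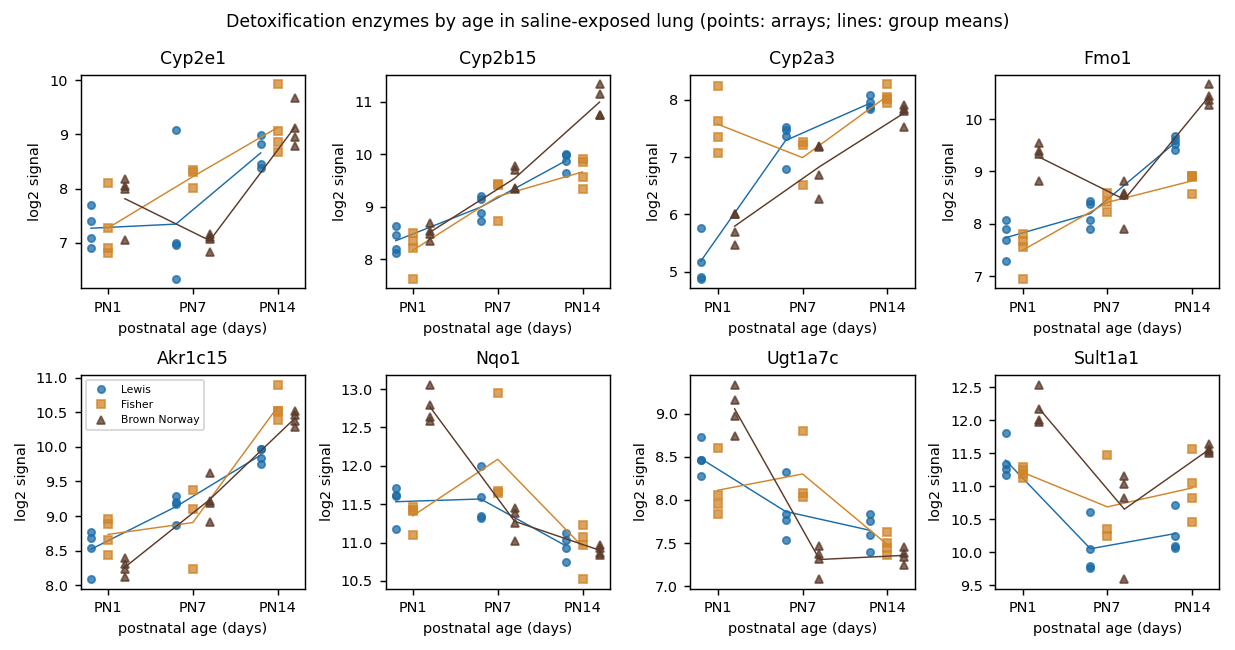
Log2 signal (vertical axes) of 8 enzymes on each saline array at PN1, PN7 and PN14 (horizontal axes), with circles for Lewis, squares for Fisher, triangles for Brown Norway and lines through the group means. Cyp2b15 and Akr1c15 rise in each strain, with PN14 medians of 9.94 and 10.37, while Nqo1 and Ugt1a7c start highest in Brown Norway at PN1 and end close together at PN14.

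Other genes of the pathway and marker genes were called with age too. Over all probes, 24.3% were called higher and 22.7% lower at PN7 than at PN1. The shares were 22% and 23% for PN14 against PN7, and 17.2% and 18% for PN14 against PN1. Of 13 measured regulators of detoxification genes (of 19 listed), 7 were lower and 1 higher at PN7 than at PN1, among them Ahr (-0.42), the aryl hydrocarbon receptor, and Nfe2l2 (-0.23), the antioxidant response factor. Between PN14 and PN7, 4 were higher, among them Ahr (0.68) and Nfe2l2 (0.22). Por, the electron donor of microsomal P450s, was 0.69 lower at PN14 than at PN1, and of 20 measured electron donors and other oxidising enzymes (of 29 listed) 7 were higher and 5 lower. Sod3, the extracellular superoxide dismutase, was 2.66 higher, and of 24 measured glutathione and thioredoxin enzymes (of 28 listed) 4 were higher and 8 lower. Of 8 measured club cell markers (of 9 listed) 5 were lower at PN14 than at PN1, and of 8 fibroblast markers (of 9 listed) all 8 were higher. All 7 measured neutrophil markers (of 9 listed) were lower, with mean summed levels of 12.18 in Lewis, 12.55 in Fisher and 12.78 in Brown Norway at PN1 and 10.62, 11.23 and 10.85 at PN14. Of 9 measured type 2 cell markers (of 10 listed) 1 was higher and 7 lower at PN14 than at PN1, and of 7 measured endothelial markers (of 9 listed) 3 were higher and 0 lower. Of 10 measured glucocorticoid-responsive genes (of 13 listed) 9 were lower at PN7 than at PN1. The part of these shifts in the enzyme differences was not tested.

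The strains followed different courses with age for 27 of 70 enzymes (limma F test of strain by age), against 37% of all probes. The lowest p-values were those of Nqo1 (F = 20.3, adjusted p = 4.93e-08), Ugt1a7c (F = 16.9, adjusted p = 3.59e-07) and Gstt2 (F = 14.2, adjusted p = 2.79e-06). In Brown Norway, Nqo1 fell from 12.77 ± 0.21 at PN1 to 11.28 ± 0.19 at PN7 (SD, n = 4). In Fisher it was at 11.35 ± 0.16 (n = 4) and 12.09 ± 0.74 (n = 3), a difference of 0.74 (adjusted p = 0.00338) that rested on PN7 saline array c, at 12.94 beside 11.64 and 11.67 on the other 2 arrays. Without array c the difference was 0.31 (adjusted p = 0.267), and the strain by age test of Nqo1 gave F = 21.4 (adjusted p = 2.94e-08). The summed level of the neutrophil markers was 12.57 on that array and 10.87 and 10.93 on the other 2, and their part was not tested. In Lewis the means of Nqo1 were 11.53 and 11.57. Ugt1a7c fell by 1.75 over this step in Brown Norway and by 0.62 in Lewis, and its Fisher difference was 0.19 (adjusted p = 0.460). Gstt2, of the theta class, fell by 0.92 in Lewis and 0.41 in Brown Norway, and its Fisher difference was 0.16 (adjusted p = 0.309). Within single strains, 31 enzymes were called between PN7 and PN1 in Brown Norway (14 higher and 17 lower), against 39% of all probes. The same step had 22 called in Lewis (13 and 9), against 28.9%, and 22 in Fisher (17 and 5), against 27.9%. Between PN14 and PN7, 12 were called in Lewis (7 higher and 5 lower), against 11% of all probes (5.88% higher and 5.13% lower), 27 in Fisher (8 and 19), against 36%, and 21 in Brown Norway (13 and 8), against 20%. Akr1c14 (F = 12.7) fell by 0.88 from PN7 to PN14 in Brown Norway, and Cyp2d4 (F = 11.6) rose by 0.70 from PN1 to PN7 in Fisher. Its Lewis difference over this step was -0.54, a call lost without Lewis PN1 saline array d (-0.45, adjusted p = 0.0558).

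Strain was compared over the same saline arrays as the mean of the differences at the 3 ages. Lewis lung had lower signals of several reductases than both other strains, and Fisher lacked a detectable Cyp4v3 signal. Averaged over the ages, Brown Norway had lower signals of Cyp2c23 and higher signals of Fmo1, Fmo2 and Gsta3. Whether sequence differences between strains under the probes have a part in any of these differences was not tested. Of 70 enzymes, 27 were called between Brown Norway and Lewis, 20 higher and 7 lower in Brown Norway, against 23.4% of all probes. Between Fisher and Lewis, 21 were called (13 higher and 8 lower in Fisher), against 15.6% of all probes (7.97% higher and 7.67% lower). Between Brown Norway and Fisher, 26 were called (13 higher and 13 lower in Brown Norway), against 32.2% (15.8% higher and 16.5% lower). Each 2 of these comparisons share the arrays of 1 strain. Among the 11 aldo-keto reductases, 7 were called between Brown Norway and Lewis and 6 between Fisher and Lewis, in each case with the lower level in Lewis.

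Akr1b8 ran from 6.21 to 7.74 in 12 Lewis arrays (median 6.64), from 8.27 to 9.45 in 11 Fisher arrays (median 8.85) and from 8.49 to 10.02 in 12 Brown Norway arrays (median 8.80). Lewis overlapped neither other strain, and was 4.47-fold below Fisher (Fisher minus Lewis 2.16, SE 0.114, adjusted p = 1.94e-24) and 4.45-fold below Brown Norway (2.15, adjusted p = 4.93e-25). Brown Norway and Fisher differed by -0.01 (adjusted p = 0.970). The 36 ovalbumin arrays were not part of these differences, but helped to set the spread used in the tests. Their medians showed the same order, at 6.78 in Lewis, 8.93 in Fisher and 8.89 in Brown Norway.

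Akr1c13 was detected on 9 of 12 Lewis saline arrays and on all Fisher and Brown Norway saline arrays, with medians of 6.58, 7.74 and 8.42. It was 2.83-fold higher in Fisher (adjusted p = 6.23e-13) and 3.79-fold higher in Brown Norway than in Lewis (adjusted p = 8.62e-18). Akr1c12l1 was higher by 0.75 and 0.81 and Akr1c19 by 0.43 and 0.54 in Fisher and Brown Norway, though Akr1c19 lost its Fisher call without Fisher PN7 saline array a (0.34, adjusted p = 0.075).

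Nqo2 ran from 7.09 to 8.24 in Lewis (median 7.80), from 9.15 to 9.66 in Fisher (median 9.46) and from 8.41 to 9.89 in Brown Norway (median 9.65). Lewis again overlapped neither strain, at 3.21-fold below Fisher (1.68, SE 0.0763, adjusted p = 9.53e-28) and 3.01-fold below Brown Norway (1.59, SE 0.0743, adjusted p = 3.91e-27). Nqo1 differed between Brown Norway and Lewis by 0.30 (adjusted p = 0.0315), a call lost when any of 7 arrays was left out, among them Brown Norway PN1 saline array c (0.26, adjusted p = 0.0694).

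Cyp4v3, of a P450 subfamily of fatty acid hydroxylases, was detected on 12 of 12 Lewis and 12 of 12 Brown Norway saline arrays and on 0 of 11 Fisher saline arrays. It ran from 6.29 to 7.51 in Lewis (median 7.07) and from 6.67 to 7.53 in Brown Norway (median 7.07), and its Fisher signal lay between 4.46 and 4.76, not above background. It was at least 2.64-fold lower in Fisher than in Lewis and at least 2.60-fold lower than in Brown Norway, taking the lowest detected signal of each Fisher array in place of the undetected one (adjusted p = 2.95e-28 and 3.59e-28). It was also detected on 0 of 12 Fisher ovalbumin arrays. Whether a strain difference in the sequence under the probe has a part in the missing Fisher signal was not tested.

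Cyp2c23, an epoxygenase of arachidonic acid, ran from 6.74 to 7.61 in Brown Norway (median 7.33), from 8.32 to 10.10 in Lewis (median 8.82) and from 8.09 to 10.06 in Fisher (median 8.86). Brown Norway lay below every array of both strains, at 3.11-fold below Lewis (-1.64, SE 0.144, adjusted p = 1.15e-14) and 3.20-fold below Fisher (-1.68, adjusted p = 1.31e-14). The highest values of the other 2 strains were on the arrays with hepatocyte genes. Cyp4f6 was highest in Lewis, by 0.71 over Brown Norway and 0.92 over Fisher (adjusted p = 7.62e-10 and 4.26e-13). Cyp2a3 was 0.74 higher in Fisher than in Lewis (adjusted p = 0.00426), and Cyp2b15 was 0.67 and Cyp4b1 0.69 higher in Brown Norway than in Fisher. Cyp2t1 differed by -0.80 between Brown Norway and Fisher (adjusted p = 0.0118). Its highest level, 10.66, was on Fisher PN1 saline array d, an array with squamous genes, against a median of 8.115 over all arrays. The difference without that array is not given here. Cyp2u1 differed by -0.56 between Brown Norway and Fisher, and Cyp2c24 by -0.24 between Fisher and Lewis.

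Averaged over the 3 ages, Brown Norway had the highest flavin monooxygenase signals. The strain difference of Fmo2 varied with age (limma F test of strain by age, F = 4.87, adjusted p = 0.00875). At PN7 its Brown Norway mean lay within the range of the Lewis saline arrays. Fmo2 ran from 6.62 to 9.90 in Brown Norway (median 8.91), from 6.51 to 8.38 in Lewis (median 7.36) and from 6.11 to 8.40 in Fisher (median 6.73), with overlap between all strains. It was 3.25-fold higher in Brown Norway than in Fisher (1.70, SE 0.236, adjusted p = 3.43e-08) and 2.05-fold higher than in Lewis (1.04, adjusted p = 0.000372). The lower Fmo2 in Fisher than in Lewis (-0.66, adjusted p = 0.0442) lost its call with the authors' values (-0.38, adjusted p = 0.119) and without the arrays with hepatocyte genes (-0.63, adjusted p = 0.0829). Fmo1 was 1.15 and 0.90 higher in Brown Norway than in Fisher and Lewis, and Fmo4 0.52 and 0.36.

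Among conjugating enzymes, Gsta3, of the alpha class, was detected on 12 of 12 Brown Norway saline arrays, 5 of 11 Fisher arrays and 3 of 12 Lewis arrays. Its medians were 6.62, 5.70 and 5.57, a difference of 1.09 between Brown Norway and Lewis (adjusted p = 1.92e-13). Gsta4 was highest in Fisher, by 0.61 over Lewis and 0.69 over Brown Norway (adjusted p = 8.44e-10 and 1.15e-11). Gsta5 was detected on 3 Fisher arrays and on none of the other saline arrays. These were the PN1 arrays a (6.57, the array with hepatocyte genes), d (6.14, an array with squamous genes) and b (5.66). Gsta5 was detected on 5 arrays in all, so these 3 helped it to meet the detection rule. Its call between Fisher and Lewis (adjusted p = 0.000723) has no fold. Without the arrays with hepatocyte genes the adjusted p was 0.00463, and without those with hepatocyte or squamous genes 0.0302. The last fit leaves PN1 array b as the only saline array with a detected signal. These fits mostly compare signals below background, so they cannot show whether a measured strain difference holds. Gstt1 was highest in Lewis, by 0.54 over each other strain, and Gsto1, of the omega class, lowest in Brown Norway, by 0.42 and 0.59. Sult1a1 was 0.88 higher in Brown Norway than in Lewis (adjusted p = 2.21e-06), and Gclc was higher in Brown Norway by 0.26 than in Lewis and 0.20 than in Fisher, the latter call being lost without Brown Norway PN1 saline array c (0.17, adjusted p = 0.0537). Cyp1a1, the classic target of the aryl hydrocarbon receptor, was detected on 1 of 35 saline arrays, a Lewis array, and its call between Brown Norway and Lewis (adjusted p = 0.0321) has no fold. This call was lost when any of 5 arrays was left out (Lewis PN1 c, PN7 a, PN7 b and PN14 d, and Brown Norway PN7 b, with adjusted p from 0.0537 to 0.0591).

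Beside these differences, 6 of 8 measured ciliated cell markers (of 12 listed) were lower in Brown Norway than in Lewis, and 2 were higher and 0 lower in Fisher than in Lewis. Over all probes, 11.6% were called higher and 11.7% lower in Brown Norway than in Lewis, and 7.97% and 7.67% in Fisher than in Lewis. Of 7 endothelial markers 4 were higher and 0 lower in Brown Norway than in Lewis. Their summed levels did not overlap at any age, with means of 15.60 and 15.07 at PN1, 15.84 and 15.34 at PN7, and 15.98 and 15.57 at PN14 in Brown Norway and Lewis. Of 8 club cell markers, 1 was lower in each of these comparisons. Of the regulators, Ahr was 0.61 lower and Mafk 0.58 higher in Brown Norway than in Lewis, and Nfe2l2 was 0.26 lower in Fisher than in Lewis. Fmod, the proteoglycan found by its symbol, was 1.37 lower in Fisher than in Lewis and 1.26 higher in Brown Norway than in Fisher. The part of the marker differences in the enzyme differences was not tested.

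**Figure D2:**
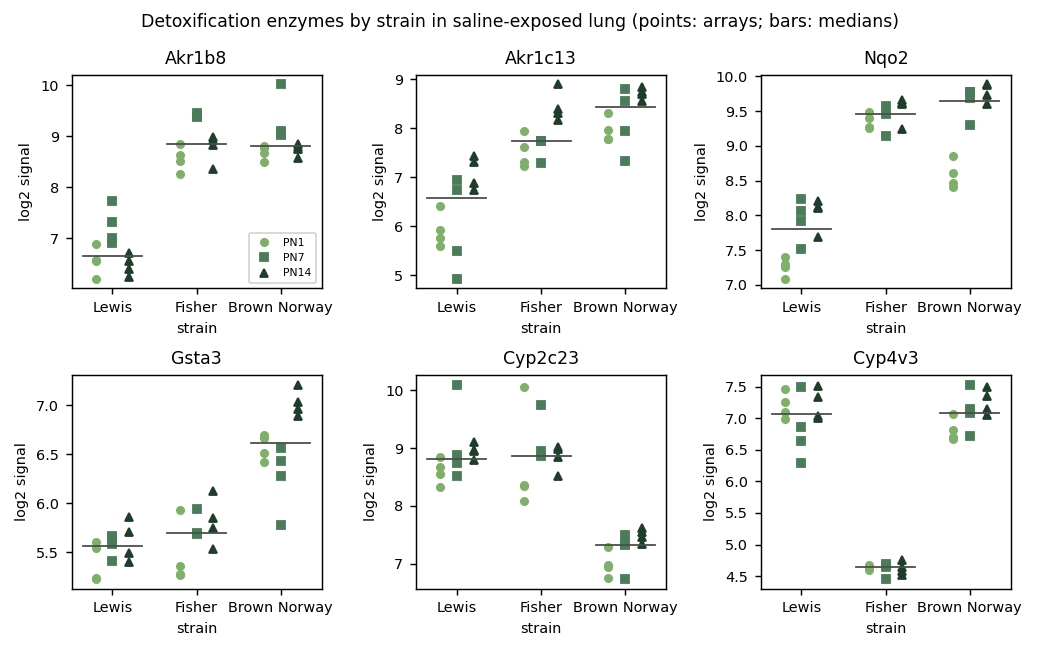
Log2 signal (vertical axes) of 6 enzymes on each saline array by strain (horizontal axes), with circles for PN1, squares for PN7, triangles for PN14 and a bar at the strain median. Lewis lies below both other strains for Akr1b8 (median 6.64) and Nqo2 (median 7.80), Brown Norway below both for Cyp2c23 (median 7.33), and Fisher near 4.64 for Cyp4v3.

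Ovalbumin was compared with saline in each strain at each age. The saline arrays are those of the age and strain comparisons above, so results for the same gene in these comparisons are not independent. The enzymes differed widely with exposure in Lewis at PN7 and in Brown Norway at PN1 and little elsewhere. In Lewis at PN7, 34 of 70 enzymes were called, 27 higher and 7 lower after ovalbumin, against 35.2% of all probes (18.3% higher and 16.9% lower). Their median difference was 0.17, and that of all probes 0.01. In Brown Norway at PN1, 25 were called, 11 higher and 14 lower, against 26.3% of all probes (13.7% higher and 12.6% lower), with a median of -0.07 beside -0.000145 for all probes. In Fisher at PN7, 6 were called, 5 higher and 1 lower, against 2% of all probes (1.07% higher and 0.934% lower). In Fisher at PN1, 1 was called, higher after ovalbumin, against 2.75% (1.46% higher and 1.3% lower).

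No enzyme was called in Lewis at PN1 or PN14, in Fisher at PN14 or in Brown Norway at PN7 or PN14 (limma). In these comparisons 9, 1, 3, 9 and 3 of 70 enzymes had an unadjusted p under 0.05. The shares of all probes at that threshold were 13.8%, 2.48%, 4.19%, 14.9% and 2.71%. At an adjusted p under 0.05, 0.171%, 0%, 0.0143%, 0.15% and 0.00713% of all probes were called. In Lewis at PN1 the probes called were 0.114% higher and 0.0571% lower, and in Brown Norway at PN7 0.0856% and 0.0642%. The ovalbumin and saline arrays of Brown Norway at PN7 and of all strains at PN14 shared no slide. With slide as a fixed term, 8 enzymes were called in Brown Norway at PN7, beside 793 of 14019 probes. At PN14 that fit called 4 enzymes in Lewis, 2 in Brown Norway and 1 in Fisher, beside 1486, 694 and 692 probes. All PN14 ovalbumin arrays but Fisher array d lay on slide 6, which held no other group. The PN14 values of that fit therefore hinge on this 1 array, which lay on slide 2.

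**Figure D3:**
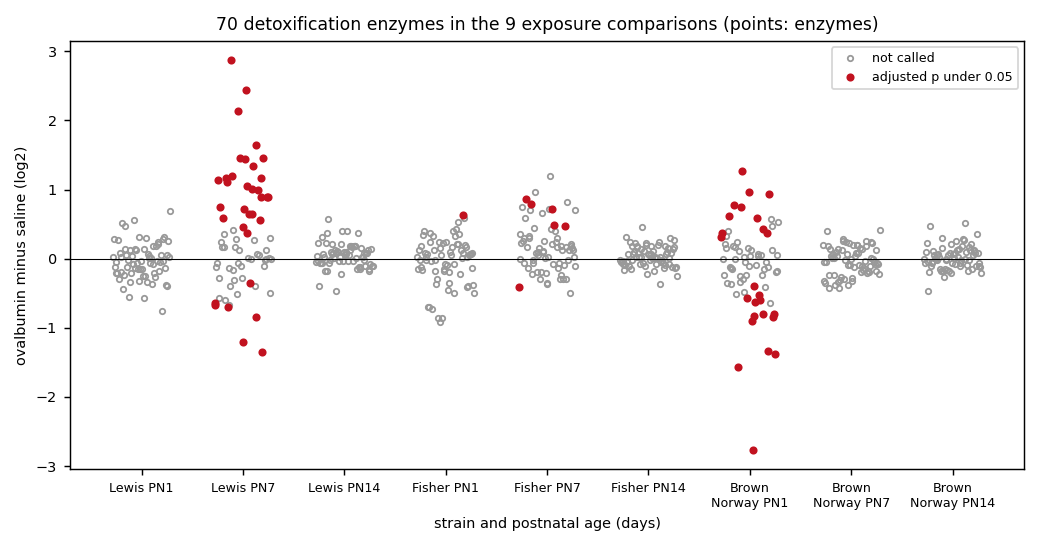
Ovalbumin minus saline difference (log2, vertical axis) of each of the 70 enzymes in the 9 combinations of strain and age (horizontal axis), with filled red points for an adjusted p under 0.05 and open grey points for the others. Called points number 34 in Lewis PN7 and 25 in Brown Norway PN1, reaching 2.87 for Cyp2e1 and -2.77 for Fmo2.

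In Lewis at PN7 the largest rises were those of P450s and flavin monooxygenases. Cyp2e1 was at 6.34, 6.99, 6.95 and 9.09 in the saline arrays a to d and at 10.26, 9.85, 10.57 and 10.18 in the ovalbumin arrays a to d. The groups did not overlap, although saline array d, the array with hepatocyte genes, lay well above the other 3. The difference was 7.32-fold (2.87, SE 0.368, adjusted p = 5.91e-09), with 3.39 within slide 4 (arrays a and b of each group, adjusted p = 2.95e-06) and 2.36 within slide 2 (arrays c and d, adjusted p = 0.0311).

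Fmo2 was at 6.51, 6.89, 6.66 and 7.53 in saline and at 9.88, 8.60, 10.03 and 8.84 in ovalbumin arrays. All ovalbumin arrays lay above all saline arrays, by 5.42-fold on average (2.44, SE 0.398, adjusted p = 1.43e-06). Fmo1 rose by 1.44 (adjusted p = 4.66e-07) and Fmo4 by 1.05 (adjusted p = 6.28e-05), so all 3 flavin monooxygenases were called higher. The second probe of Fmo4 was detected on 0 of 4 saline and 4 of 4 ovalbumin arrays, and was at least 1.72-fold higher after ovalbumin (adjusted p = 5.25e-05).

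Cyp3a9 was at 6.57, 6.66, 7.37 and 7.81 in saline and at 9.30, 8.77, 9.69 and 9.18 in ovalbumin arrays. The groups did not overlap (2.13, 4.39-fold, adjusted p = 8.12e-08). Cyp4b1, which activates furans and other lung toxicants, rose by 1.45 (adjusted p = 6.07e-10), and Cyp2f4, an airway P450 that oxidises naphthalene, by 1.20. Of 26 P450s, 8 were called higher and 2 lower, against 18.3% and 16.9% of all probes. Cyp4f5 was at 7.46, 7.71, 7.995 and 6.88 in saline and at 6.17, 6.82, 5.75 and 6.49 in ovalbumin arrays, without overlap (-1.20, adjusted p = 7.01e-06). The fall of Cyp2c23 (-0.69, adjusted p = 0.0233) rested on saline array d, which was at 10.10 while the other 3 lay from 8.52 to 8.89, and without that array it was -0.35 (adjusted p = 0.284). It also lost its call without ovalbumin array c (-0.58, adjusted p = 0.0972) or d (-0.62, adjusted p = 0.0705).

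Nqo2 and Nqo1 moved in opposite directions. Nqo2 was at 7.92, 8.06, 8.24 and 7.52 in saline and at 6.58, 6.59, 6.70 and 6.48 in ovalbumin arrays. Every ovalbumin array lay below every saline array (-1.35, 2.54-fold, SE 0.129, adjusted p = 1.77e-12). Nqo1 was at 11.35, 11.33, 11.59 and 12.00 in saline and at 12.73, 12.60, 12.86 and 12.76 in ovalbumin arrays, also without overlap (1.17, adjusted p = 5.14e-07). Akr1b1, aldose reductase, fell by 0.67 (adjusted p = 7.33e-07) and Akr1a1, aldehyde reductase, by 0.64 (adjusted p = 3.75e-09).

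Of 15 glutathione transferases, 8 were called higher and 2 lower, against 18.3% and 16.9% of all probes. Gstm7, of the mu class, was at 7.18, 7.30, 7.86 and 7.92 in saline and at 9.26, 8.85, 9.43 and 9.27 in ovalbumin arrays, without overlap (1.64, 3.11-fold, adjusted p = 8.91e-09). Gstm2 and Gstm1 rose by 1.34 and 1.00 and Gstt2 by 0.89 (adjusted p = 1.43e-09), whereas Gstm5 fell by 0.84 (adjusted p = 4.07e-05). Sult1a1 rose by 1.46 (adjusted p = 4.16e-06), Ugt1a6 by 0.90 and Ugt1a7c by 0.89. Gclc rose by 0.38 (adjusted p = 0.00697), a call lost without saline array c (0.26, adjusted p = 0.0843), and Gclm differed by 0.00 (adjusted p = 0.988).

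In Brown Norway at PN1, all 3 flavin monooxygenases, Cyp2e1, Nqo1 and 2 of 6 UDP-glycosyltransferases (Ugt1a6 and Ugt1a7c) were lower after ovalbumin. Of all probes, 12.6% were called lower. The saline arrays of this comparison also gave the Brown Norway PN1 levels in the age, strain and strain by age results. Fmo2 was at 9.90, 8.44, 9.54 and 9.44 in saline and at 6.26, 6.58, 6.91 and 6.50 in ovalbumin arrays. The groups did not overlap, and the difference was 6.80-fold (-2.77, SE 0.398, adjusted p = 2.25e-07). Within slide 3, which held arrays a and b of each group, it was -2.75 (adjusted p = 0.00771). Fmo1 fell by 0.90 (adjusted p = 0.00144) and Fmo4 by 0.83 (adjusted p = 0.00185). The second probe of Fmo4 was detected on 4 of 4 saline and 0 of 4 ovalbumin arrays, and was at least 2.01-fold lower after ovalbumin (adjusted p = 9.29e-05).

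Cyp2e1 was at 8.04, 7.05, 8.17 and 7.99 in saline and at 6.16, 6.50, 5.79 and 6.55 in ovalbumin arrays. Saline array b lay nearest the ovalbumin arrays but above all of them (-1.57, 2.96-fold, adjusted p = 0.000768). Within slide 3 the difference was -1.22 (adjusted p = 0.0980). Cyp4f5 rose by 0.97 (adjusted p = 0.000326), Cyp2b15 by 0.78 (adjusted p = 0.000676) and Cyp2r1, a vitamin D 25-hydroxylase, by 0.74 (adjusted p = 0.000467), and each of these was not called within slide 3. Cyp2t1 was at 8.22, 8.18, 10.58 and 8.55 in ovalbumin arrays and from 7.04 to 8.04 in saline arrays, and its call (1.27, adjusted p = 0.0207) was lost without ovalbumin array c, the array with squamous genes (0.71, adjusted p = 0.244). It was also lost without saline array c (1.08, adjusted p = 0.0909) or d (1.18, adjusted p = 0.0601).

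Nqo1 was at 12.64, 12.59, 13.06 and 12.80 in saline and at 11.41, 11.21, 11.55 and 11.56 in ovalbumin arrays. All ovalbumin arrays lay below all saline arrays (-1.34, 2.53-fold, adjusted p = 6.78e-08), with -1.30 within slide 3 (adjusted p = 0.0110). Nqo2 was at 8.60, 8.86, 8.41 and 8.47 in saline and at 9.64, 9.56, 9.52 and 9.39 in ovalbumin arrays. It was higher in every ovalbumin array (0.94, 1.92-fold, adjusted p = 8.32e-08).

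Ugt1a7c was at 8.98, 8.75, 9.34 and 9.17 in saline and at 7.54, 7.70, 7.72 and 7.79 in ovalbumin arrays, without overlap (-1.37, 2.59-fold, adjusted p = 3.80e-09). Ugt1a6 fell by 0.80 (adjusted p = 0.00128), and Sult5a1 fell by 0.84 (adjusted p = 0.000301). Both ligase subunits fell, Gclm by 0.62 (adjusted p = 0.00185) and Gclc by 0.39 (adjusted p = 0.00696), the latter called no longer without saline array c (-0.29, adjusted p = 0.0739). Of 15 glutathione transferases, 3 were higher, among them Gsta4 (0.58, adjusted p = 0.000190), and 3 lower, Gstm7 (-0.79), Gstm2 (-0.60) and Gstm1 (-0.52). The shares of all probes called higher and lower were 13.7% and 12.6%. Without saline array c, Gstm1 (-0.46, adjusted p = 0.0506) and Gstm2 (-0.49, adjusted p = 0.0889) were not called, and Gstm2 was also lost without any of 3 other arrays, saline d and ovalbumin a and b. Within slide 3, 6 enzymes were called, 5 of them among the 25, beside 700 of 14019 probes. Fmod was 1.06 higher after ovalbumin (adjusted p = 6.03e-05).

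**Figure D4:**
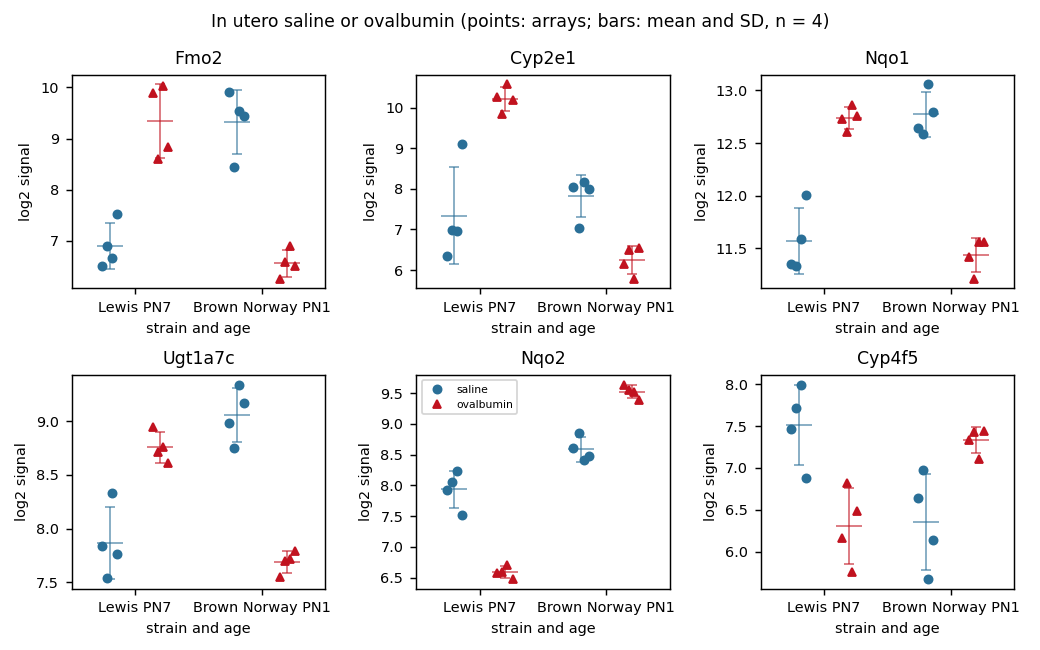
Log2 signal (vertical axes) of 6 enzymes on each saline array (blue circles) and ovalbumin array (red triangles) of Lewis PN7 and Brown Norway PN1 (horizontal axes), with the mean and SD of each group of 4. Fmo2, Cyp2e1, Nqo1 and Ugt1a7c are higher after ovalbumin in Lewis PN7 and lower in Brown Norway PN1 (Fmo2 2.44 and -2.77), and Nqo2 and Cyp4f5 the reverse.

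The 2 comparisons share no arrays, and 20 enzymes were called in both, 58.8% of the 34 and 80% of the 25. Of these 20, 18 had opposite directions, 12 up in Lewis PN7 and down in Brown Norway PN1 and 6 the reverse, and 2, Cyp2b15 and Gstt1, were higher in both. The Brown Norway call of Gstt1 was lost without any of 6 of the 8 arrays (saline a, c and d, ovalbumin b, c and d), with differences of 0.29 to 0.38 and adjusted p from 0.0561 to 0.169. Over all probes, 2159 were called in both and 2058 of them, 95.3%, had opposite directions, so the 90% of the enzymes was near the background. The exposure differences were tested for a difference between strains at each age (limma F test). At PN7 this was called for 30 of 70 enzymes, against 25% of all probes, led by Nqo2 (F = 40.5, adjusted p = 5.00e-09), Cyp4b1 (F = 29.7), Akr1a1 (F = 28.8), Gstt2 (F = 25.7) and Cyp2e1 (F = 20.1). At PN1 it was called for 23, against 22.6%, led by Nqo1 (F = 29.4, adjusted p = 5.57e-07), Ugt1a7c (F = 19.8), Gstt2 (F = 17.4), Nqo2 (F = 13.6) and Fmo2 (F = 11.3). At PN14 it was called for 0, against 0% of all probes. There, 3 of 70 enzymes had an unadjusted p under 0.05, against 1.31% of all probes.

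Over all probes, 18.3% were called higher and 16.9% lower after ovalbumin in Lewis PN7, and 13.7% and 12.6% in Brown Norway PN1. Beside the Lewis PN7 differences, 6 of 10 glucocorticoid-responsive genes were higher, 0 lower, with summed levels of 14.74 to 15.09 in saline and 15.38 to 16.17 in ovalbumin arrays. In Brown Norway PN1, 1 was higher and 8 lower, with 15.51 to 16.27 in saline and 15.31 to 15.41 in ovalbumin arrays. Fibroblast markers moved the other way, with 5 of 8 lower and 1 higher in Lewis PN7 (16.52 to 16.85 in saline, 16.05 to 16.19 in ovalbumin) and 5 higher and 1 lower in Brown Norway PN1 (16.20 to 16.41 and 16.46 to 16.59). Of 9 measured type 2 cell markers (of 10 listed), 5 were higher and 0 lower in Lewis PN7, and 1 higher and 4 lower in Brown Norway PN1. Of 7 measured neutrophil markers, 4 were higher and 0 lower in Lewis PN7 (summed levels 10.76 to 12.39 in saline, 12.02 to 12.84 in ovalbumin), and 0 higher and 2 lower in Brown Norway PN1 (12.52 to 13.10 and 11.62 to 12.24). Of 5 measured macrophage markers (of 9 listed), 2 were higher and 1 lower in Lewis PN7 (10.56 to 10.92 and 11.27 to 11.57), and 0 higher and 1 lower in Brown Norway PN1 (10.71 to 10.95 and 10.42 to 10.49). The macrophage sums overlapped in neither comparison, and the neutrophil sums overlapped in Lewis PN7. Of the club cell markers, 1 was higher and 1 lower of 8 in Lewis PN7 and 1 higher in Brown Norway PN1. The part of these shifts in the enzyme differences was not tested.

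Other genes of the pathway were called in these comparisons too. Por, the electron donor of P450s, was 0.87 higher in Lewis PN7 and 1.28 lower on the log2 scale in Brown Norway PN1. Abcb1b, an export pump for drugs, was 2.45 higher in Lewis PN7, and in Brown Norway PN1 its difference was -2.33. Mgst2, a microsomal glutathione transferase, rose by 1.02 and fell by 0.87 in the same comparisons. Of 13 regulators, 7 were higher in Lewis PN7, against 18.3% of all probes. Among them were Arnt (0.92), the partner of the aryl hydrocarbon receptor, and Nfe2l2 (0.41). In Brown Norway PN1, Ahr was 0.65 higher and Nfe2l3, Keap1 and Mafg were lower (-0.56, -0.37 and -0.44).

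In Fisher at PN7, Akr1c19 (0.87, adjusted p = 0.0352), Cyp2b15 (0.79, adjusted p = 0.0220), Gclm (0.72, adjusted p = 0.0177), Gsta4 (0.49) and Gstt2 (0.47) were higher and Akr1a1 (-0.40, adjusted p = 0.0114) lower after ovalbumin. With the replicate letter as a block, 0 of these 6 were called (adjusted p from 0.176 to 0.306), and 0 were called with slide as a fixed term or without ovalbumin array d, the array with heart genes. Gclm was at 10.32, 10.43 and 10.25 in saline and at 10.62, 10.87, 11.08 and 11.63 in ovalbumin arrays, the highest on that array. Without saline array c 2 enzymes were called, and without ovalbumin array c 3. In Fisher at PN1, Gstt2 was at 10.35, 10.40, 10.59 and 10.29 in saline and at 10.89, 11.10, 10.97 and 11.22 in ovalbumin arrays. The groups did not overlap (0.64, adjusted p = 0.000133), and within slide 3 the difference was 0.62 (adjusted p = 0.0476). It was not called with the replicate letter as a block (adjusted p = 0.148), although the letters did not pair these arrays.

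Promoters are shown for Fmo2, Cyp2e1, Nqo1 and Ugt1a7c, the 4 enzymes with the largest falls in Brown Norway PN1. All of them were higher in Lewis PN7, where other enzymes rose more than Nqo1 and Ugt1a7c. The promoter of Nqo2, which moved against them, is shown too. The genes were chosen after their values were seen. Each run covers 250 bases before to 50 bases after the start of the gene, from RefSeq on GRCr8, 5′ to 3′ on the strand of the gene. Capitals mark matches, on either strand, to 3 core motifs: TGACNNNGC, the antioxidant response element bound by Nfe2l2, GCGTG, the site of the aryl hydrocarbon receptor, and ACANNNTGT, the site of the glucocorticoid receptor. Fmo2 lies at chr13:77777485-77777784 on the minus strand, Cyp2e1 at chr1:205269717-205270016 on the plus strand, Nqo1 at chr19:52220218-52220517 on the minus strand, Ugt1a7c at chr9:96187132-96187431 on the plus strand and Nqo2 at chr17:31143613-31143912 on the minus strand.
Fmo2: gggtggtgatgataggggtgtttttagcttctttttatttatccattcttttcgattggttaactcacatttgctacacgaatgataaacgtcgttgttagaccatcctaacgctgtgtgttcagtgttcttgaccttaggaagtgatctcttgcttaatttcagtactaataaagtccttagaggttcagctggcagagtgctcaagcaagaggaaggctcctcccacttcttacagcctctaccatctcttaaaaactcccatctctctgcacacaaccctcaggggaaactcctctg
Cyp2e1: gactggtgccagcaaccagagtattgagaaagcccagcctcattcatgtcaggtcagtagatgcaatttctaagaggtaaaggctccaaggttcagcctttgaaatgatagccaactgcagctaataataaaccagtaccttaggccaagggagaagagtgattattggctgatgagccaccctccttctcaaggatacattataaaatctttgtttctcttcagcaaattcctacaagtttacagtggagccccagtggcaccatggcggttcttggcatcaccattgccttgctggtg
Nqo1: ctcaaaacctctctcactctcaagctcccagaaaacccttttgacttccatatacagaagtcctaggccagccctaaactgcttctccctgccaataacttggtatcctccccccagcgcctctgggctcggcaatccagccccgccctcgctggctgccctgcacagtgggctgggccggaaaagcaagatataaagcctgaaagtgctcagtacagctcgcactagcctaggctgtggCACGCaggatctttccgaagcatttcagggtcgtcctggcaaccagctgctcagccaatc
Ugt1a7c: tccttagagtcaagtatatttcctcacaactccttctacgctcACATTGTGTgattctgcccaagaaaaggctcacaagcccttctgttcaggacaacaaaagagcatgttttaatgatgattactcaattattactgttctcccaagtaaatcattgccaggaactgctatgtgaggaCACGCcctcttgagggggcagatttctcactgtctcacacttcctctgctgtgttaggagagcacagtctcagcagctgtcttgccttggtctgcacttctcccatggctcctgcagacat
Nqo2: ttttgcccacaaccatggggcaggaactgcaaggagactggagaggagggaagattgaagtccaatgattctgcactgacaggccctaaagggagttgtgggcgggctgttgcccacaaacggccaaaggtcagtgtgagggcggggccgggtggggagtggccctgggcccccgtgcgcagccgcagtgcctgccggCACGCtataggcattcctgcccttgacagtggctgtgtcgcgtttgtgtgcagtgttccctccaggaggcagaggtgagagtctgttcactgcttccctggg

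These windows held 0 matches to the antioxidant motif. GCGTG was matched on the opposite strand (as CACGC in the runs above) in Nqo1 at -10 to -6 from the start, in Ugt1a7c at -71 to -67 and in Nqo2 at -52 to -48, so enzymes that moved in opposite directions both carried it. Ugt1a7c also held ACANNNTGT at -207 to -199, and no matches overlapped. Of 33469 promoters of this length, 12.1% held the antioxidant motif, 29.7% GCGTG and 6.86% ACANNNTGT. Of the 61 enzymes with a promoter in the table, 8 (13.1%), 23 (37.7%) and 5 (8.2%) did.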

How the data were processed

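RNA was extracted with Trizol and labelled as biotinylated cRNA with an Ambion MessageAmp kit, per the labels' protocols, and hybridised to Illumina bead arrays of 22523 probes. The authors deposited raw signal intensities with a detection p-value per probe, and log2 values. Tested on the files, the deposited log2 values were the quantile-normalized log2 raw signal to within 5e-05. The submitters' processing notes name lumi, version not given.

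The neqc function of limma 3.58.1 (offset 16, background from the detection p-values) in R 4.3.3 corrected, quantile-normalized and log2-transformed the intensities. Probes detected (p under 0.01) on at least 3 arrays, 14019 in all, entered 1 linear model of the 18 group means (53 residual degrees of freedom, eBayes with trend), and p-values were Benjamini-Hochberg adjusted over all of them. For a gene with several probes, the brightest is given and the other is set beside it where they disagree. Where a group is undetected on every array, a fold is a lower bound. The number of arrays limits the precision. The genes named are the called enzymes of largest rise and fall in each comparison (up to 8 each, 5 for exposure), the 5 of lowest p in each F test, and listed enzymes of known roles. Others named beside them were picked after their values were seen. Members and lists were chosen with earlier results of these data known. Squamous and heart genes and the runs without such arrays were added after seeing the data. The fit was tested on simulated data.

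Alternatives were run where they apply. Every comparison over all enzymes was recomputed from the deposited log2 values, from signals left uncorrected, over all probes, with slide in the fit (random or fixed), with the replicate letter as a block and with each array left out. The age, strain and exposure differences were also fitted on only the groups compared, some of them within 1 slide that held both groups, and 3 genes on a second probe. Age differences within a strain were recomputed for named genes without each array, an alternative added after seeing the data. No label explains the letters. Same-lettered arrays deviated together in Fisher at PN7 between ovalbumin and saline (correlations 0.351, 0.433 and 0.34 for letters a to c) and between Fisher and Lewis saline arrays (0.117, 0.332, 0.299 and 0.254). Figures were drawn with matplotlib 3.10.9.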

Additional observations from a re-analysis of the deposited data

Results flagged for a closer look

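In 49 sets of 4 arrays examined, 2 enzymes had an array far from the other 3, where chance gives about 5% of sets. Cyp2e1 was at 7.047 on Brown Norway PN1 saline array b, while the other 3 saline arrays lay between 7.992 and 8.175. Cyp2t1 was at 10.58 on Brown Norway PN1 ovalbumin array c, one of the arrays high in squamous genes, while the other 3 lay between 8.18 and 8.555.

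The strains differed in their course with age (limma F test of strain by age) for Nqo1 (F = 20.3), Ugt1a7c (F = 16.9), Gstt2 (F = 14.2), Akr1c14 (F = 12.7) and Cyp2d4 (F = 11.6). Cyp2d4 went from 7.20 ± 0.25 at PN1 to 8.25 ± 0.37 at PN14 in Fisher (SD, n = 4 each).

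The strains differed in the exposure difference at PN1 for Nqo1 (F = 29.4), Ugt1a7c (F = 19.8), Gstt2 (F = 17.4), Nqo2 (F = 13.6) and Fmo2 (F = 11.3). The Gstt2 difference was -0.18 for Lewis, 0.64 for Fisher and -0.11 for Brown Norway. The Nqo2 difference was 0.05 for Lewis, 0.20 for Fisher and 0.94 for Brown Norway.

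At PN7 the exposure difference varied between strains for Nqo2 (F = 40.5), Cyp4b1 (F = 29.7), Akr1a1 (F = 28.8), Gstt2 (F = 25.7) and Cyp2e1 (F = 20.1). Nqo2 differed by -1.35 in Lewis, 0.17 in Fisher and 0.01 in Brown Norway. Cyp4b1 differed by 1.45 in Lewis, 0.26 in Fisher and -0.38 in Brown Norway. Cyp2e1 differed by 2.87 in Lewis, 0.97 in Fisher and -0.42 in Brown Norway.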

How the results depend on the processing

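With slide as a fixed term, the numbers of enzymes called were 4 in Lewis PN14, 5 in Fisher PN1, 0 in Fisher PN7, 1 in Fisher PN14, 8 in Brown Norway PN7 and 2 in Brown Norway PN14, for ovalbumin against saline. In the same order, that fit called 1486, 710, 6, 692, 793 and 694 of 14019 probes. Its PN14 values hinge on Fisher PN14 ovalbumin array d. Within slide 3, 6 enzymes were called in Brown Norway PN1, beside 700 probes. Within slide 4, 21 were called in Lewis PN7, beside 1926 probes, and 0 in Fisher PN7, beside 0. In Fisher PN1, 2 were called with the authors' log2 values, with no background correction, with slide as a random block and without the 2 arrays with hepatocyte genes. In Fisher PN7, 0 were called with only the groups compared and without the array with heart genes. With the replicate letter as a block, 0 were called in Fisher PN1 and Fisher PN7 and 1 in Brown Norway PN14, and the other counts stayed within 1.5 times (26 in Lewis PN7, 20 for exposure by strain at PN7, 19 for Fisher against Lewis). Leaving out 1 array gave 25 to 29 called for PN7 against PN1, 30 to 35 for PN14 against PN7, 28 to 32 for PN14 against PN1, 24 to 28 for Brown Norway against Lewis and also against Fisher, 18 to 22 for Fisher against Lewis, 31 to 36 in Lewis PN7, 17 (without saline array c) to 27 in Brown Norway PN1, 0 to 8 in Fisher PN7 and 1 to 4 in Fisher PN1 (4 without ovalbumin array a, 2 without saline array a). It gave 24 to 30 for strain by age, 16 to 24 and 26 to 33 for exposure by strain at PN1 and PN7, and 0 for the 6 comparisons with 0. Directions turned with slide as a fixed term between PN14 and PN7 for Cyp4b1 (-0.23), Sult1a1 (-0.058) and Gclm (-0.40), within slide 4 for Cyp2c23 in Lewis PN7 (0.0098), and on the second probe for Akr1c12 between PN7 and PN1 (0.27, on a probe detected on 2 of 12 and 2 of 11 arrays) and Gstp1 between Brown Norway and Fisher (-0.22). The cause was not tested. Of 444 values of named genes, 437 kept direction and call with the authors' values and 312 with slide as a fixed term. Signals near background limit the enzymes detected on fewer than 10 arrays.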

Other observations

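Cyp1a1 had its highest level, 7.30, on Lewis PN1 ovalbumin array c, with 5.93 on array d of the same group and a median of 4.81 over all arrays. The Lewis PN1 saline arrays lay between 5.06 and 5.57, and the exposure difference was not called (limma adjusted p = 0.263). Cyp4a3, a fatty acid hydroxylase of liver and kidney, reached 8.47 on Fisher PN1 saline array a and 6.69 on Lewis PN7 saline array d, the arrays with hepatocyte genes, against a median of 5.18. Sult1b1 was at 7.42 on Brown Norway PN1 ovalbumin array c and 7.18 on Fisher PN1 saline array d, against a median of 4.75.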
